A study of Mus musculus with 28 samples.

Results

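Acute phase proteins are plasma proteins whose output by the liver changes during inflammation, and 10 of their genes are described here: Saa1, Saa2, Saa3 and Saa4 (serum amyloid A), Orm1 and Orm2 (orosomucoid, or alpha-1-acid glycoprotein), Apcs (serum amyloid P), Hp (haptoglobin), Hpx (hemopexin) and Lcn2 (lipocalin 2). They were chosen by symbol. A probe was taken where its RefSeq accession belongs to 1 of these symbols, which gave 12 of the 41174 probes on the array and 10 of the 20303 genes or other transcripts (features) tested. Saa1 and Saa4 each have 2 probes, and each of the other 8 genes has 1. All 12 probes were well above background on all 28 arrays, so all 10 genes passed the filter on dim probes.

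Liver RNA of 28 mouse samples was hybridised, 1 sample per single-colour array, in 7 groups of 4. Every mouse carried Fah-/-, the loss of fumarylacetoacetate hydrolase, the enzyme that completes tyrosine breakdown. Such mice live on NTBC (nitisinone), a drug that blocks an earlier step of the pathway. Mice of the Fah-/- genotype and of the Fah/ p53-/- genotype, written Fah-/- p53-/- below, were measured on full NTBC (100%, 7.5 mg/L in the drinking water), on reduced NTBC and on no NTBC (0%). Mice that lacked p21 as well as Fah, written Fah-/- p21-/-, were measured with no NTBC alone. The reduced dose is 25% of full in the sample labels and 2.5%, given for 3 months, in the treatment text of the series, so it is called the reduced dose. The ages of the mice, the time without NTBC and the cells in which p53 and p21 were deleted are not stated in the labels. No label says whether a group's 4 samples are 4 animals, so p-values measure the spread between these samples, which may be technical.

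During infection or tissue damage, macrophages release interleukin-6 and interleukin-1, which reach hepatocytes. Interleukin-6 acts through the shared receptor chain gp130 and the transcription factor STAT3, and interleukin-1 through NF-kappaB. C/EBP family factors act with both. Saa1 and Saa2 encode apolipoproteins of high-density lipoprotein that rise steeply in plasma during inflammation. Saa3 is also made outside hepatocytes, in macrophages and fat among others, and Saa4 is the constitutive family member. Haptoglobin captures free hemoglobin and hemopexin captures free heme. Lipocalin 2 binds bacterial iron carriers and is also stored in neutrophil granules.

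The stretch just before the transcription start is shown for 6 of the genes, because it is where several of the factors above can bind and because it shows how alike Saa1 and Saa2 are. Promoters came from RefSeq on build GRCm38.p6, whose table holds 8 of the 10 genes and not Orm1 or Hp. Each line is 250 bases, 5′ to 3′ on the gene's own strand, ending at the base before the start. Capitals mark a match on either strand to the C/EBP motif TTGCNNAA, or in Apcs to the STAT motif TTCNNNGAA.
Saa1, chr7:46742981-46743230, minus strand: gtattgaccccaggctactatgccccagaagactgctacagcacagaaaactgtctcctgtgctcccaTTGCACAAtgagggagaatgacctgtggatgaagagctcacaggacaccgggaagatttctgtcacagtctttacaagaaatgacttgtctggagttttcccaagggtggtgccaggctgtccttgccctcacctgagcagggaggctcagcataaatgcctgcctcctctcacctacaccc
Saa2, chr7:46751583-46751832, plus strand: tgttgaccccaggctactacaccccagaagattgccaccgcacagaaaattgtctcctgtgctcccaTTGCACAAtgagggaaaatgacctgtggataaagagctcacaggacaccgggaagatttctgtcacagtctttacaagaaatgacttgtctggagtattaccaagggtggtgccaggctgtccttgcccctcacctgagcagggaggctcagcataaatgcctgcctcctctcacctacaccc
Saa3, chr7:46715677-46715926, minus strand: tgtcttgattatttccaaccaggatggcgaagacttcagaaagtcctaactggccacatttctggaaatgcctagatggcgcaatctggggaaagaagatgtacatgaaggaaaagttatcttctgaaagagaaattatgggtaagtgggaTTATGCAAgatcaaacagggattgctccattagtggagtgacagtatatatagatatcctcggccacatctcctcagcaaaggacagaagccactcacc
Orm2, chr4:63362199-63362448, plus strand: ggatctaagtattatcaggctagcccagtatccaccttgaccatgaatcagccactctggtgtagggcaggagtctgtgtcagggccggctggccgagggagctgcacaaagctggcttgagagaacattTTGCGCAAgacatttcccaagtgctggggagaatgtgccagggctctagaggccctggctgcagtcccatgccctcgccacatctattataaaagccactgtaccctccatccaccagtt
Lcn2, chr2:32387740-32387989, minus strand: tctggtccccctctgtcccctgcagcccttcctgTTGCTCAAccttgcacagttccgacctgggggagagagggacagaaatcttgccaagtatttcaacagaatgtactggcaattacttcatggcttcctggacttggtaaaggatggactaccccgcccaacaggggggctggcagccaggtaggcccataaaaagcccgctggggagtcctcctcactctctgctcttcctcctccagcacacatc
Apcs, chr1:172895055-172895304, minus strand: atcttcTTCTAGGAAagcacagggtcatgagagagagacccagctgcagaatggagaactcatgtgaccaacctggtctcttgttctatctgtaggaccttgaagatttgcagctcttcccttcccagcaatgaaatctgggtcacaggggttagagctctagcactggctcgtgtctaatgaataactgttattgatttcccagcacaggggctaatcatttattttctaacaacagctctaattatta

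The upstream stretches of Saa1 and Saa2 were identical at 238 of 251 aligned positions (94.8%, 2 gap positions). Their starts lie 8853 bases apart on opposite strands, and the 4 Saa starts span 36157 bases of chromosome 7. Saa1 and Saa3 were identical at 50.2% of aligned positions and Saa1 and Lcn2 at 53.9%. The C/EBP letters stood in 7 of the 8 promoters, against 9.56% of all 32851 promoters of this length in the table, and among these 8 Apcs was the exception. They lay 182 to 175 bases before the start in Saa1, 183 to 176 in Saa2, 99 to 92 in Saa3, 120 to 113 in Orm2, 200 to 193 in Hpx and 216 to 209 in Lcn2. Saa4 had a pair of matches, at 245 to 238 and at 52 to 45. The STAT letters stood in 1 of 8, Apcs, against 7.02% of all promoters, and the NF-kappaB consensus in 0 of 8, against 7.25%. A match is a string of letters, not a bound site. RefSeq lists Saa1 and Saa2 as synonyms of each other, and probes for genes this alike can take up each other's transcript, so their separate values are uncertain.

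In the values below, a level is the log2 of a probe's processed signal over the 75th percentile of all probes on that array, so a level of 0 is at that percentile. Levels were compared for 1 probe between groups, never between genes. A gene was called changed where the adjusted p of the limma fit over all 28 arrays (Benjamini-Hochberg over the 20303 features) was under 0.05. The 75th percentile of signal ran from 251.8 to 350.8 on full, 327.6 to 442.9 on reduced and 379.3 to 578.1 on no NTBC, and no spot was saturated. The number of arrays limits the precision. The arrays of each dose were scanned in a different year by the scan dates, so dose and scan year cannot be told apart. At full and at reduced dose each genotype also had its own slide, so genotype and slide cannot be told apart there. By Xist and Ddx3y, the Fah-/- p53-/- arrays with no NTBC were all female, 2 of the Fah-/- p21-/- arrays were female, and all others were male. The Fah probe read -0.2 in Fah-/- mice on full NTBC, the Trp53 probe differed by -0.2 between Fah-/- p53-/- and Fah-/- mice there, and the Cdkn1a (p21) probe by -1.04 between Fah-/- p21-/- and Fah-/- mice with no NTBC (adjusted p 0.379 and 0.139 in the limma fit). Whether these probes lie in the deleted parts is not known, so they check nothing. The hepatocyte markers Alb, Apob, Apoa2, Ttr, Cps1, Tdo2, Hnf4a and Cyp2e1 were well above background on every array of every group.

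**Figure D1:**
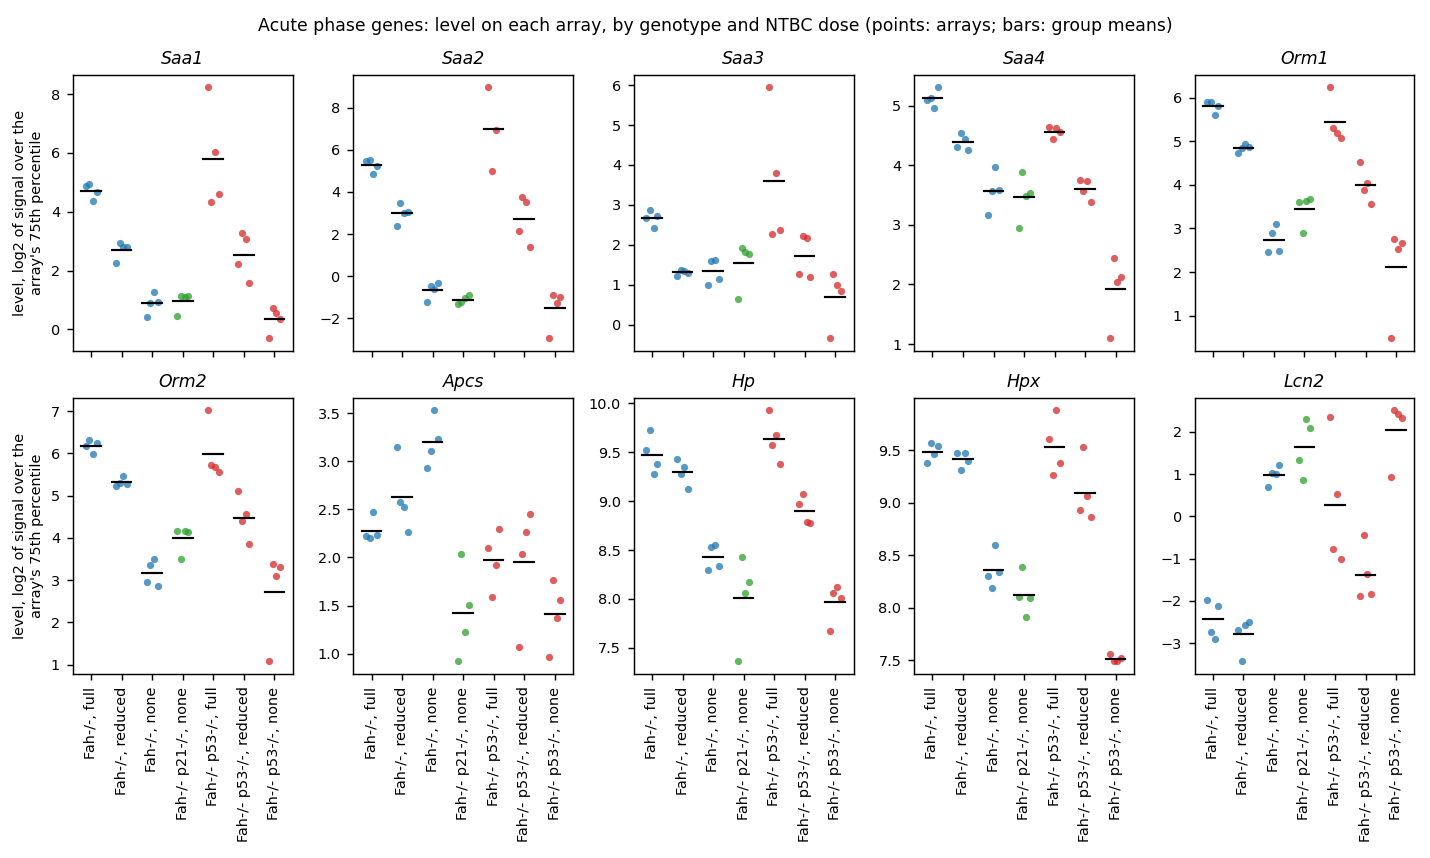
Level (log2 of signal over the array's 75th percentile) of each of the 10 genes on each of 28 arrays, by genotype and NTBC dose, with points for arrays and bars for group means. Saa1 and Saa2 step down from full to reduced to no NTBC in both genotypes, Lcn2 is high in the groups with no NTBC, and Fah-/- p53-/- mice on full NTBC spread widely in Saa1, Saa2, Saa3 and Lcn2 (Saa1 4.34 to 8.24).

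The acute phase A-type amyloids fell in steps as NTBC was lowered. In Fah-/- livers Saa1 was 4.04-fold lower on reduced and 14.3-fold lower on no NTBC than on full NTBC, and Saa2 was 4.91-fold and 61-fold lower. Without p53 the same steps were 9.66-fold and 44.2-fold for Saa1 and 19.1-fold and 355-fold for Saa2. In that genotype the arrays with no NTBC were female and those on full NTBC male. With a term for sex the log2 change for none against full was -5.14 for Saa1 and -8.16 for Saa2. The sizes without p53 depend on the arrays and the scale: for none against full NTBC the log2 change of Saa2 was -8.47, and ran from -6.81 in the deposited value table to -9.46 without full replicate 2, and that of Saa1 was -5.46, and -4.44 without the first array of each dose. In whole liver RNA, fewer cells of a type and less RNA per cell cannot be told apart.

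The levels of Saa1, a lipoprotein-bound amyloid precursor, in Fah-/- mice were 4.86, 4.95, 4.36 and 4.68 on the 4 full-dose arrays. They were 2.27, 2.93, 2.81 and 2.8 at the reduced dose and 0.41, 0.9, 1.27 and 0.94 with none. The 3 doses did not overlap. The fitted change was -2.01 (SE 0.53) for reduced against full, with an adjusted p of 0.00443 in the limma fit. For none against full it was -3.83, adjusted p 9.79e-07, and for none against reduced -1.82, adjusted p 0.00499, by the same fit. The Saa1 levels without p53 were 8.24, 4.34, 6.03 and 4.6 on full NTBC, 2.22, 3.27, 3.07 and 1.57 on reduced and -0.3, 0.73, 0.56 and 0.36 with none. Again no array of a lower dose reached the dose above it. The changes were -3.27 (limma adjusted p 4.54e-05) on reduced and -5.46 (3.71e-09) on no NTBC. The second Saa1 probe gave larger falls with no NTBC, by 5.66 (Fah-/-) and 7.8 (Fah-/- p53-/-), and similar ones on reduced NTBC, by 2.18 and 3.52.

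Saa2, the neighbouring gene with the near-identical promoter, had levels of 5.48, 5.53, 4.87 and 5.21 in the Fah-/- group at full dose. At the reduced dose they were 2.4, 3.46, 3.01 and 3.04, and with none -1.24, -0.46, -0.6 and -0.33. Every array of a dose lay below every array of the dose above. The changes were -2.29 (SE 0.6, limma adjusted p 0.00409) and -5.93 (9.64e-09) against full, and -3.63 (1.8e-05) for none against reduced. Among the Fah-/- p53-/- arrays on full NTBC the spot of replicate 4 was marked as uneven by the scanner software and left out, so n = 3 there, with levels of 8.97, 4.98 and 6.94. On reduced NTBC the levels were 2.16, 3.77, 3.5 and 1.4, and with none -2.94, -0.87, -1.25 and -0.98. The doses did not overlap here either. The changes were -4.25 (SE 0.65, limma adjusted p 2.42e-05) and -8.47 (1.02e-10), and with the uneven spot kept -3.72 and -7.94.

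Saa3, which other cell types also make, fell with the first lowering of NTBC and showed no further called fall. In Fah-/- mice its levels ran from 2.42 to 2.86 on full, 1.22 to 1.37 on reduced and 0.98 to 1.63 on no NTBC. Neither lower dose overlapped full NTBC, and they overlapped each other. The changes against full were -1.36 (SE 0.53, limma adjusted p 0.0432) and -1.33 (0.028), and none against reduced was 0.03 (95% interval -1.06 to 1.11, adjusted p 0.966). These are the least firm of the Saa calls. The first was lost whichever of the 8 arrays was left out (limma adjusted p 0.0554 to 0.0882), and the second was lost without Fah-/- full replicate 2, none replicate 1 or none replicate 4 (0.0578 to 0.0681). Without p53 Saa3 ran from 2.26 to 5.95, from 1.18 to 2.23 and from -0.34 to 1.26, with called falls of 1.88 (limma adjusted p 0.00638) and 2.91 (3.35e-05) against full NTBC. The fall of 1.88 was not called with normexp background correction (-1.21, limma adjusted p 0.0559) or in a fit of the groups compared alone (0.0831). None against reduced was -1.02 there, not called (limma adjusted p 0.0956).

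Saa4, the constitutive amyloid A of the family, also fell at each lower dose. Its levels in Fah-/- mice were 5.09, 5.12, 4.96 and 5.31 on full, 4.31, 4.54, 4.44 and 4.25 on reduced and 3.16, 3.57, 3.97 and 3.59 on no NTBC. The 3 doses did not overlap. The change was -0.74 (SE 0.21, limma adjusted p 0.00816) on reduced and -1.55 (7.96e-07) on no NTBC. The 4 arrays of each dose without p53 read 4.64, 4.44, 4.63 and 4.55, then 3.76, 3.56, 3.73 and 3.38, and with none 1.1, 2.44, 2.04 and 2.12. These doses were also separate, with changes of -0.96 (limma adjusted p 0.00104) and -2.64 (1.54e-10). The second Saa4 probe fell further with no NTBC, by 2.48 with p53 present and by 3.79 without it. For Saa4 in Fah-/- mice the reduced-dose call was lost under normexp background correction (-0.73, limma adjusted p 0.0589) and quantile normalization (-0.47, 0.0789), in the same direction.

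Both orosomucoids, drug-binding plasma glycoproteins, moved together. With no NTBC, Orm1 was 8.39-fold lower in Fah-/- and 10.2-fold lower in Fah-/- p53-/- livers than on full NTBC, and Orm2 was 8.04-fold and 9.65-fold lower. Orm1 levels with p53 present were 5.9, 5.91, 5.6 and 5.81 on full NTBC, 4.74, 4.85, 4.95 and 4.87 on reduced and 2.45, 2.89, 3.11 and 2.49 with none. No 2 doses overlapped. The changes were -0.95 (SE 0.35, limma adjusted p 0.0346) on reduced and -3.07 (5.22e-08) on no NTBC. The reduced-dose call was lost in 7 of the 8 fits that left out 1 array, all but that without Fah-/- full replicate 3 (limma adjusted p 0.0508 to 0.0755), and under normexp, quantile and the deposited values (0.117 to 0.182). Orm2, from 5.98 to 6.31 on full and from 5.23 to 5.46 on reduced NTBC, was separate too but not called (-0.86, 95% interval -1.64 to -0.08, limma adjusted p 0.0734). With none it lay from 2.87 to 3.51, a change of -3.01 (limma adjusted p 2.06e-07).

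Orm1 levels without p53 were 6.25, 5.3, 5.19 and 5.08 on full NTBC, 4.53, 3.89, 4.04 and 3.56 on reduced and 0.48, 2.75, 2.52 and 2.67 with none. The doses were separate, and 1 array with no NTBC stood well below the other 3. The changes were -1.45 (limma adjusted p 0.00222) and -3.35 (1.25e-08) for Orm1 and -1.51 (0.00273) and -3.27 (5.47e-08) for Orm2. Without the first array of both end doses they shrank to -1.19 and -2.54 for Orm1 and to -1.17 and -2.38 for Orm2, all still called. The third gene of the cluster, Orm3, was not among the 10 genes chosen. With no NTBC it fell by 4.74 in Fah-/- mice (limma adjusted p 2.39e-06) and by 3.51 without p53 (0.000111). The Orm2 and Orm3 upstream stretches were identical at 85.9% of aligned positions, and probes for such genes can take up each other's transcript.

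Apcs encodes serum amyloid P, the pentraxin that serves mice as a main acute phase protein, and it moved apart from the rest. In Fah-/- mice its levels were 2.22, 2.2, 2.47 and 2.23 on full, 3.15, 2.58, 2.52 and 2.27 on reduced and 2.93, 3.11, 3.53 and 3.23 on no NTBC. The arrays with no NTBC were all above those on full NTBC, and reduced NTBC overlapped both. Apcs rose 1.89-fold with no NTBC (0.92, SE 0.26, limma adjusted p 0.00325), and on reduced NTBC the change was 0.35 (adjusted p 0.306). Without p53 the levels were 2.1, 1.59, 1.92 and 2.3 on full, 1.07, 2.04, 2.27 and 2.45 on reduced and 0.97, 1.77, 1.37 and 1.56 on no NTBC. These groups overlapped, and the changes were -0.02 on reduced and -0.56 on no NTBC (limma adjusted p 0.953 and 0.0601).

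Haptoglobin and hemopexin, the scavengers of hemoglobin and heme, depended on how the arrays were scaled. Hp levels in Fah-/- mice were 9.52, 9.73, 9.28 and 9.38 on full, 9.43, 9.28, 9.35 and 9.12 on reduced and 8.3, 8.53, 8.55 and 8.34 on no NTBC. The arrays with no NTBC lay apart and below. On this scale Hp fell 2.07-fold (-1.05, SE 0.17, limma adjusted p 6.57e-06) with no NTBC, but it rose in the deposited value table (0.51, 0.00532) and was 0.34 under quantile normalization (0.0806). Hpx levels were 9.38, 9.57, 9.46 and 9.54 on full, 9.47, 9.31, 9.47 and 9.4 on reduced and 8.3, 8.19, 8.6 and 8.34 on no NTBC. Those with no NTBC were again the lowest. Hpx fell by 1.13 (SE 0.14, limma adjusted p 9.96e-08) on this scale, rose by 0.31 in the deposited value table (0.0456) and was 0.25 under quantile normalization (0.0736). On reduced NTBC Hp changed by -0.18 and Hpx by -0.08, neither called on this scale, and Hpx was called higher after quantile normalization (0.35, limma adjusted p 0.0247) and in the value table (0.42, 0.0173). The direction of either gene in Fah-/- livers without NTBC flips with the scaling.

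The signals before scaling are given beside this flip. Hp signals ran from 188000 to 245000 on full and from 172000 to 191000 on no NTBC in Fah-/- mice, while the 75th percentile of the same arrays rose from between 270.8 and 350.8 to between 471 and 578.1. The brightest signal of an array ran from 549000 to 658000 on full NTBC and from 320400 to 394100 on none. Over all features the median change for none against full in Fah-/- mice was -0.167 on the main scale, -0.396 with normexp, 0.008 after quantile normalization and 0.002 in the value table. Between these scales the called features split 5952 higher to 8438 lower, 3243 to 7241, 7103 to 7029 and 6731 to 6670. For Saa1, Saa2, Saa3, Saa4, Orm1, Orm2, Apcs and Lcn2 the direction for none against full NTBC in Fah-/- mice was the same on all 4 scales.

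Hp levels without p53 were 9.93, 9.57, 9.68 and 9.38 on full, 8.97, 9.07, 8.79 and 8.78 on reduced and 7.67, 8.06, 8.12 and 8.01 on no NTBC. The doses were separate. Hp fell by 0.74 on reduced (limma adjusted p 0.00122) and by 1.67 on no NTBC (5.08e-09), against -0.4 (0.0415) after quantile normalization and -0.33 (0.0581) in the value table. The reduced-dose fall of Hp was not called on any of the other 3 scales (-0.04 to -0.25). Hpx levels were 9.61, 9.26, 9.88 and 9.38, then 8.93, 9.53, 9.06 and 8.86, and with none 7.56, 7.49, 7.49 and 7.52. The arrays with no NTBC were tightly grouped below all others, and the other doses overlapped. Hpx fell by 2.02 with no NTBC (limma adjusted p 7.66e-12), and by 0.88 and 0.91 after quantile normalization and in the value table, both called. Its reduced-dose change of -0.44 (limma adjusted p 0.0122) turned to 0.11 in the value table and 0.24 with normexp, and its call was lost without reduced replicate 4 or full replicate 3.

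**Figure D2:**
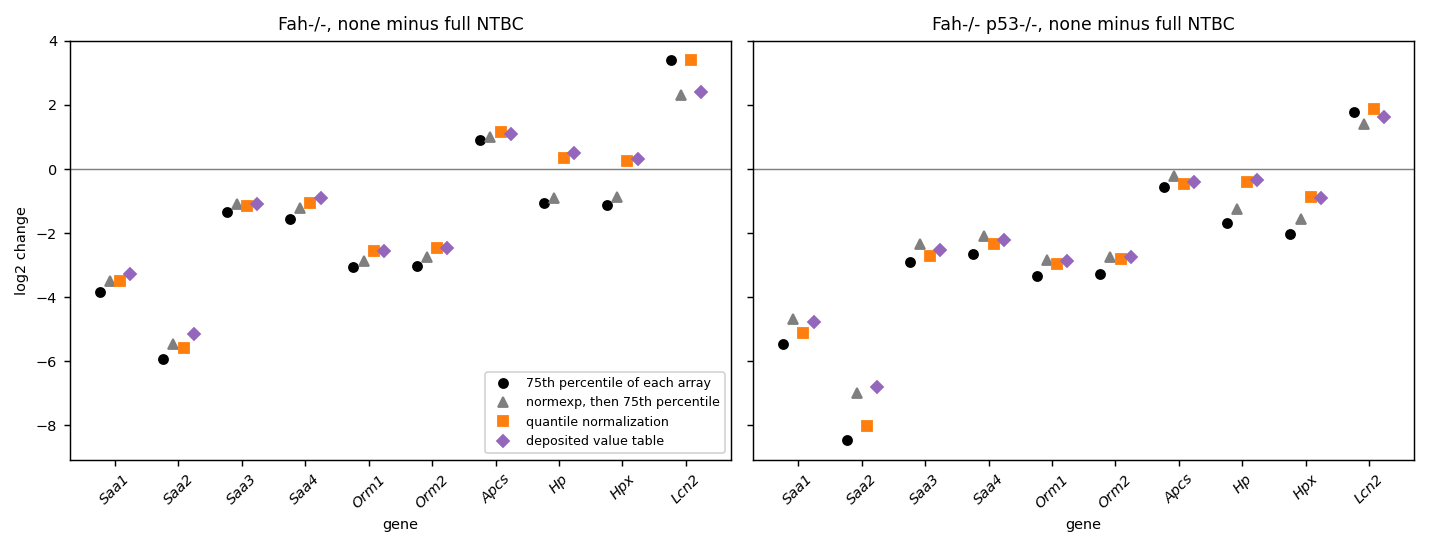
Log2 change for none against full NTBC of the 10 genes in Fah-/- (left) and Fah-/- p53-/- mice (right) on 4 scales: the 75th percentile of each array, normexp then the 75th percentile, quantile normalization, and the deposited value table. In Fah-/- mice Hp and Hpx lie below 0 on the first 2 scales (Hp -1.05, Hpx -1.13) and above 0 on the others (Hp 0.34 and 0.51), while the other genes stay on 1 side.

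Lcn2, the iron-carrier-binding lipocalin, was the only one of the 10 genes higher with no NTBC than on full NTBC in both genotypes. It was 10.6-fold higher in Fah-/- and 3.4-fold higher in Fah-/- p53-/- livers. The rise in Fah-/- livers was 3.41 on the log2 scale, but 2.32 with normexp and 2.41 in the value table, both called. In Fah-/- mice the levels were -1.97, -2.74, -2.9 and -2.13 on full, -2.69, -3.43, -2.56 and -2.49 on reduced and 0.69, 1.02, 1 and 1.21 on no NTBC. All 4 arrays with no NTBC lay above the other 8, which overlapped each other. The signal behind these levels was 43.2 to 69 on full and 876 to 1340 on no NTBC. The change was 3.41 (SE 0.52, limma adjusted p 4.01e-06) with no NTBC and -0.36 (0.625) on reduced.

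Without p53, Lcn2 first fell and then rose. Its levels were 2.34, -0.76, 0.54 and -1.01 on full, -1.88, -0.44, -1.36 and -1.84 on reduced and 0.93, 2.51, 2.42 and 2.32 on no NTBC. The full-dose arrays overlapped both others, and reduced and none were separate. The changes were -1.66 (limma adjusted p 0.0146) on reduced, 1.77 (0.00463) on none, both against full, and 3.42 (6.19e-06) for none against reduced. The fall on reduced NTBC rested on 1 array: without full-dose replicate 1 it was -0.97 (limma adjusted p 0.0861). A fit of the groups compared alone called neither change against full NTBC (0.0961 and 0.0635).

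Neutrophils also carry Lcn2, so their markers are given beside it. Of 8 neutrophil genes that passed the filter, 0 were called by the limma fit in Fah-/- mice for none against full NTBC and 0 had an unadjusted p under 0.05, where S100a8 changed by 0.91 (limma adjusted p 0.116) and Mmp9 by 0.67 (0.0977). Without p53 2 of 8 were called higher, Mmp9 by 1.54 and Ltf by 2.13, beside 29.6% of all features. Both were well above background on 0 of the 4 full-dose arrays there. They were so on all 4 arrays only in groups with no NTBC, so they passed the filter through groups where they are high. The granule genes Ngp, Camp, Elane, Mmp8 and Cd177 were not well above background on all 4 arrays of any group. The mean level of the 8 genes ran over arrays from -3.63 to -2.83 in Fah-/- mice on full and from -3.03 to -2.6 on no NTBC. Of 12 macrophage and Kupffer cell markers 9 were called higher and 0 lower in Fah-/- mice with no NTBC, among them Cd68 (1.89) and Vsig4 (1.47). Of all features 29.3% were called higher and 41.6% lower. The mean level of these markers ran from -0.24 to 0.49 on full and from 0.51 to 2.11 on no NTBC. Without p53 their group mean was 0.41 on full, 0.51 on reduced and 1.6 on no NTBC. The Lcn2 means of these groups were 0.28, -1.38 and 2.05. The part of these cells in the Lcn2 levels was not tested.

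**Figure D3:**
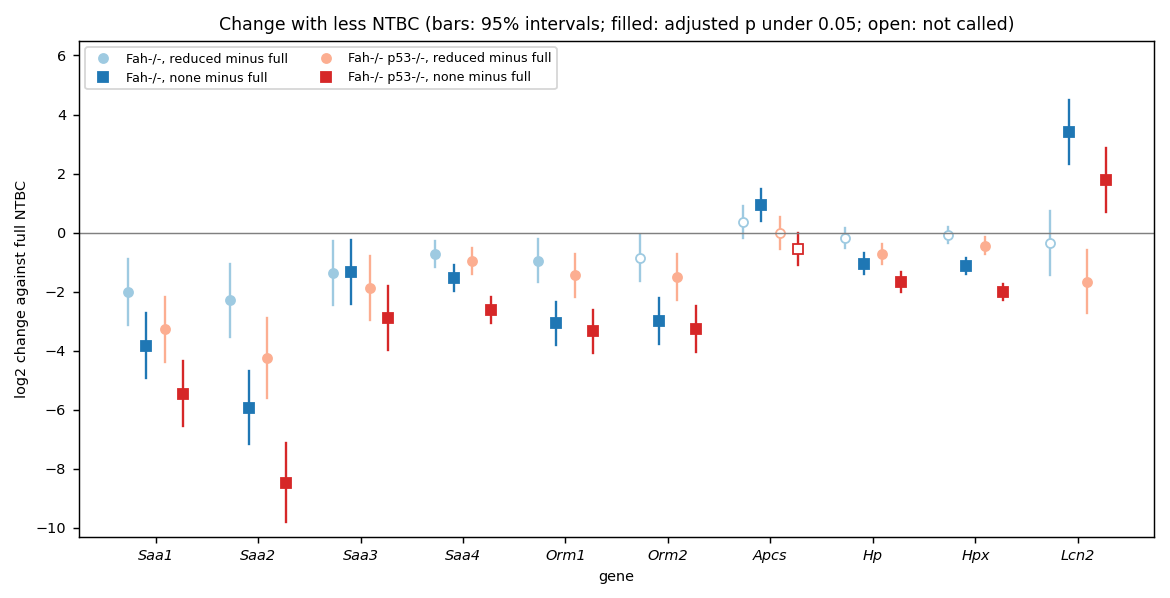
Log2 change against full NTBC of the 10 genes on reduced and on no NTBC in Fah-/- and in Fah-/- p53-/- mice, with 95% intervals, filled where the adjusted p is under 0.05. The points for Saa1 and Saa2 lie lowest (Saa2 -5.93 and -8.47 with no NTBC), and Lcn2 is above 0 with no NTBC (3.41 and 1.77).

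The step from reduced to no NTBC, beyond the values given above, was as follows in Fah-/- mice. Orm1 fell by 2.12 (limma adjusted p 1.8e-05), Orm2 by 2.15 (3.47e-05) and Saa4 by 0.81 (0.00203), and Lcn2 rose by 3.77 (1.67e-06). The Saa4 call was lost with normexp (-0.5, limma adjusted p 0.121) and in the value table (-0.33, 0.173). Hp (-0.86) and Hpx (-1.06) were called lower on this scale and not called after quantile normalization (0.09 and -0.1) or in the value table (0.26 and -0.11). Apcs changed by 0.57 (limma adjusted p 0.059) and was called after quantile normalization (0.73, 0.0167), in the value table (0.67, 0.0326) and without reduced replicate 1 (0.74, 0.0214) or none replicate 1 (0.66, 0.0496). Without p53 Saa1 fell by 2.19, Saa2 by 4.22, Saa4 by 1.68, Orm1 by 1.9, Orm2 by 1.76, Hp by 0.94 and Hpx by 1.57, with limma adjusted p from 1.58e-09 to 0.00113. The Hp call there was lost after quantile normalization (-0.14) and in the value table (-0.23). Apcs changed by -0.54 (limma adjusted p 0.0782), and was called without reduced replicate 1 (-0.83, 0.00475).

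Counted together, 5 of 10 genes fell and 0 rose on reduced against full NTBC in Fah-/- mice, where 22.3% of all features were called lower and 17.4% higher. With no NTBC 8 fell and 2 rose against full (all features 41.6% lower and 29.3% higher), and 7 fell and 1 rose against reduced (38.1% and 26.1%). Without p53 9 fell and 0 rose on reduced NTBC (19.5% and 20.3%), 8 fell and 1 rose on none against full (40.1% and 29.6%), and 7 fell and 1 rose on none against reduced (38.1% and 23.2%). In both comparisons of no NTBC without p53 the arrays with no NTBC were female and the others male. With a term for sex Saa1 (-1.86, limma adjusted p 0.113), Orm1 (-1.49, 0.0536) and Orm2 (-1.45, 0.0815) lost their calls for none against reduced. For none against full no call of the 10 genes changed with that term, and Lcn2 rose by 2.88. With normexp background correction the 5 called on reduced NTBC became 2 in Fah-/- and the 9 became 3 in Fah-/- p53-/- mice. The median change of the 10 genes was -0.8 on reduced and -1.44 on no NTBC in Fah-/- mice, beside -0.03 and -0.17 over all features. Without p53 it was -1.48 and -2.77, beside 0.02 and -0.14. The full-dose arrays are shared by both changes of a genotype. Among the members that count as fallen with no NTBC in Fah-/- mice are Hp and Hpx, whose direction flips with scaling.

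Hepatocyte markers fell beside these genes. In Fah-/- mice 5 of 8 fell on reduced and 8 of 8 on no NTBC (all features 22.3% and 41.6% lower). Their mean level went from between 7.11 and 7.37 on full to between 5 and 5.47 on none. Without p53, 3 of 8 fell on reduced and 8 of 8 on no NTBC (all features 19.5% and 40.1% lower). Alb, the main plasma protein of hepatocytes, fell with no NTBC by 1.8 (Fah-/-) and 1.91 (Fah-/- p53-/-). These falls are given on the main scale alone. On that scale Hp and Hpx, which are bright too, also fell in Fah-/- mice, while both rose in the value table. The part of the hepatocyte marker falls in the members' changes was not tested.

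Other positive acute phase proteins, those that inflammation raises, fell with the members. Of 26 tested, 20 fell and 5 rose in Fah-/- mice with no NTBC, where 41.6% of all features fell and 29.3% rose. Their median was -1.94 beside -0.17 for all features. Among them Itih4 fell by 3.73, Itih3 by 3.31, the complement gene Cfb by 2.46 and the fibrinogen chain Fgg by 2.25. On reduced NTBC 14 fell and 2 rose (all features 22.3% and 17.4%), led by the fibrinogen chain Fga (-1.57) and Itih3 (-1.41). The counts without p53 were 20 down and 5 up on none (all features 40.1% and 29.6%). On reduced NTBC they were 12 down and 4 up there (19.5% and 20.3%), and Itih4 fell by 4.73 on none and 1.48 on reduced. Negative acute phase proteins, those that inflammation lowers, fell as well: 12 of 14 in both genotypes with no NTBC, and 8 and 9 of 14 on reduced NTBC. The shares of all features are those just given. These include the retinol carrier Rbp4, which fell with no NTBC by 1.52 (Fah-/-) and 1.62 (Fah-/- p53-/-). In both classes falls outnumbered rises, as they did over all features with no NTBC. These values are on the main scale alone.

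Genes of the interleukin-6 and gp130 pathway were called in both directions. With no NTBC in Fah-/- mice 4 of 18 rose and 9 fell, shares near those of all features (29.3% higher and 41.6% lower): the kinase Jak2 rose by 1.27 and the receptor chain Il6st (gp130) by 0.59, while Stat3 fell by 0.9 and the receptor Lifr by 1.24. On reduced NTBC 0 rose and 6 fell (all features 17.4% and 22.3%), among them Socs3, a STAT3 target that brakes the pathway, by 2.12 (limma adjusted p 3.01e-05), and Il6 by 1.39. Of the 18, 6 rose and 5 fell without p53 on no NTBC (all features 29.6% and 40.1%), with Jak2 at 1.24, Stat3 at -1.32 and the interleukin-6 receptor Il6ra at -0.91. Of 21 genes of interleukin-1, TNF and NF-kappaB signalling 9 rose and 4 fell in Fah-/- and 7 rose and 3 fell in Fah-/- p53-/- mice with no NTBC. The lipopolysaccharide co-receptor Cd14 rose by 3.96 and 2.99 and the receptor Il1r1 by 1.92 and 2.61, while its partner chain Il1rap fell by 3.96 and by 4. Of 11 liver transcription factors of acute phase genes 9 fell and 1 rose in Fah-/- and 8 fell and 1 rose in Fah-/- p53-/- mice with no NTBC. For both of these lists the shares of all features are those given above for no NTBC in each genotype. Cebpa, the C/EBP factor of resting hepatocytes, fell by 1.29 and by 1.97, and Cebpd rose by 1.92 in Fah-/- p53-/- mice.

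Loss of p53 was compared with its presence at each dose. On full NTBC Lcn2 was 6.57-fold higher in Fah-/- p53-/- than in Fah-/- livers (2.71, SE 0.52, limma adjusted p 0.000981), and all 4 arrays lay above all 4 of Fah-/- mice. The size depended on the scale: it was 1.72 with normexp, 2.65 after quantile normalization and 1.79 in the value table, each called. Lcn2 was the 1 gene of 10 called higher there, and 0 were called lower (all features 6.34% higher and 7.59% lower). Without the first Fah-/- p53-/- array, which had the highest level, the difference was 2.03, still called. Saa1 and Saa2 were 1.09 (95% interval -0.02 to 2.19) and 1.69 (0.35 to 3.03) higher with limma adjusted p of 0.189 and 0.0857, and their groups overlapped. Without Fah-/- p53-/- replicate 2 they were called at 1.58 and 2.68 (0.0482 and 0.00449), and without both the first arrays they were 0.28 and 0.69 and not called. Saa4 was separate between the genotypes but not called (-0.56, 95% interval -1 to -0.12, limma adjusted p 0.0851). Saa3 (0.93), Orm1 (-0.35), Orm2 (-0.19), Apcs (-0.3), Hp (0.16) and Hpx (0.04) overlapped, with limma adjusted p from 0.26 to 0.873.

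On reduced NTBC Saa4 was 1.71-fold lower in Fah-/- p53-/- mice (-0.78, limma adjusted p 0.0149), the 1 gene called lower of 10 with 0 higher (all features 5.8% lower and 9.85% higher). That call was lost with normexp (-0.72, limma adjusted p 0.242), in the value table (-0.6, 0.0616) and without Fah-/- p53-/- replicate 4 (-0.7, 0.0512). Lcn2 was 1.41 higher (95% interval 0.33 to 2.5, limma adjusted p 0.0693), with no overlap between the groups. Orm1 (-0.85), Orm2 (-0.84) and Hp (-0.39) were also separate between the genotypes and not called (limma adjusted p 0.106, 0.136 and 0.116). The groups overlapped for Apcs (-0.67), Hpx (-0.32), Saa1 (-0.17), Saa2 (-0.27) and Saa3 (0.4), with limma adjusted p from 0.0832 to 0.87.

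With no NTBC 3 genes were lower in Fah-/- p53-/- livers than with p53 present and 0 higher (all features 6.6% lower and 7.65% higher). Apcs was 3.44-fold lower (-1.78, limma adjusted p 0.000101), Saa4 3.13-fold lower (-1.65, 2.59e-05) and Hpx 1.79-fold lower (-0.84, 0.000295). In each of them the 4 arrays of a genotype lay apart from the 4 of the other. These Fah-/- p53-/- arrays were female and the Fah-/- arrays male, so genotype and sex cannot be told apart without the Fah-/- p21-/- arrays. With a term for sex, which those arrays allow, the values were -1.89, -1.56 and -1.08, all called. With slide as a fixed term they were -1.74, -1.5 and -0.88, and the Saa4 call was lost (limma adjusted p 0.0693), and within the slide that held both genotypes -1.55, -1.28 and -0.73, all called. Lcn2 was 1.07 higher (limma adjusted p 0.18), and 1.44 and called (0.0136) without the first arrays. Hp was separate but not called (-0.46, limma adjusted p 0.0645), and Saa1 (-0.54), Saa2 (-0.85), Saa3 (-0.65), Orm1 (-0.63) and Orm2 (-0.45) overlapped (0.246 to 0.548).

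Apcs was also low without p21. Its levels with no NTBC were 0.92, 2.04, 1.23 and 1.51 in Fah-/- p21-/- mice, all below the Fah-/- arrays (2.93 to 3.53). The difference was 3.42-fold (-1.78, limma adjusted p 0.000221), -1.82 with slide as a fixed term and -1.83 in male arrays alone. It was the 1 gene of 10 called in this comparison, with 0 called higher (all features 3.59% lower and 3.94% higher). Between Fah-/- p53-/- and Fah-/- p21-/- mice Apcs differed by -0.01 (95% interval -0.55 to 0.53).

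None of the other 9 genes passed the threshold between Fah-/- p21-/- and Fah-/- mice with no NTBC. Saa1 levels were 0.44, 1.15, 1.11 and 1.14 and Saa2 levels -1.34, -1.21, -1.04 and -0.9, against means of 0.88 and -0.66 in Fah-/- mice. Saa3 differed by 0.2 (95% interval -0.89 to 1.29) and Saa4 by -0.11 (-0.55 to 0.33). Orm1 levels were 3.6, 2.89, 3.63 and 3.68, a difference of 0.72 (95% interval -0.01 to 1.44, limma adjusted p 0.226), and the Orm2 difference was 0.82 (1.77-fold, 0.04 to 1.6, unadjusted p 0.0397, adjusted p 0.19 in the limma fit). Lcn2 levels were 1.33, 0.85, 2.31 and 2.1, with the groups overlapping (0.67, adjusted p 0.475 in the limma fit). Neutrophil markers spread most in this group, their mean level running from -3.56 to -1.13 over the 4 arrays. In Fah-/- mice it ran from -3.03 to -2.6. Of these markers Ltf was separate (-2.34 to -0.77, against -4.87 to -4.54 in Fah-/- mice). The means of S100a8, Cxcr2 and Csf3r were lower than in Fah-/- mice. The part of neutrophils in the Lcn2 levels was not tested. Hp and Hpx differed by -0.42 and -0.23 on the main scale and were called lower after quantile normalization (-0.64 and -0.49) and in the value table (-0.81 and -0.59). Hp was also called without Fah-/- p21-/- replicate 2 (-0.56, limma adjusted p 0.0458).

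Against Fah-/- p21-/- mice with no NTBC, Fah-/- p53-/- mice had 4 genes lower and 0 higher (all features 5.96% lower and 5.04% higher). Saa4 was 2.9-fold lower (-1.54, limma adjusted p 6.47e-05), Orm1 2.54-fold (-1.35, 0.0149), Orm2 2.42-fold (-1.27, 0.0306) and Hpx 1.52-fold (-0.61, 0.00511). Each pair of groups was separate. Among female arrays alone Saa4 (-1.5) and Hpx (-0.73) were called and Orm1 (-1.14) and Orm2 (-1.12) were not. With slide as a fixed term none of the 4 was called, with differences of -1.44, -1.4, -1.37 and -0.57. The Orm2 call was also lost without Fah-/- p53-/- replicate 1 (-0.73, 0.0769) or without Fah-/- p21-/- replicate 1, 3 or 4 (-1.21 to -1.22). Saa1 (-0.62), Saa2 (-0.39), Saa3 (-0.85), Hp (-0.04) and Lcn2 (0.4) overlapped and were not called (limma adjusted p 0.328 to 0.909).

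The response to the loss of NTBC itself differed between the genotypes for 3 genes, all with a more negative change in Fah-/- p53-/- mice and 0 with a more positive one (all features 4.25% and 4.86%). The difference of the changes was -1.48 (SE 0.37, limma adjusted p 0.013) for Apcs, -1.09 (SE 0.3, 0.0238) for Saa4 and -0.88 (SE 0.19, 0.00498) for Hpx. With a term for sex Apcs (-1.59, 0.11) and Saa4 (-1.01, 0.234) were no longer called and Hpx was (-1.13, 0.0218). With normexp none of the 3 was called. The Saa4 call was also lost without Fah-/- none replicate 3 (0.0524). For Saa1, Saa2 and Lcn2 the differences were -1.63 (adjusted p 0.185), -2.54 (0.0715) and -1.65 (0.172) in the limma fit, none past the threshold. The Saa2 result turned on 1 array: without Fah-/- p53-/- full replicate 2 its difference was called for no NTBC (-3.53, limma adjusted p 0.00617) and for reduced NTBC (-2.95, 0.0189). Saa3 (-1.58), Orm1 (-0.28), Orm2 (-0.26) and Hp (-0.63) were not called either (limma adjusted p 0.0971 to 0.812). In the response to reduced NTBC 0 of 10 genes were called different by the limma fit (all features 6.74% more positive and 3.64% more negative). There 2 of 10, Saa2 (-1.96) and Hp (-0.55), had an unadjusted p under 0.05. The other 8 differences were -1.26 (Saa1), -0.53 (Saa3), -0.22 (Saa4), -0.5 (Orm1), -0.65 (Orm2), -0.37 (Apcs), -0.36 (Hpx) and -1.3 (Lcn2).

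Within a group, arrays tended to be high or low in many of the genes at once. The first Fah-/- p53-/- array on full NTBC was above its group's mean in all 10 genes, by 0.08 to 2.44, and replicate 2 of that group was below it in all 10, by up to 1.98. The first Fah-/- p53-/- array with no NTBC was below its group's mean in 9 of 10, by up to 1.64. Among Fah-/- mice with no NTBC replicate 1 was below in all 10 and replicate 3 above in all 10, by at most 0.58 and 0.4. Saa1, Saa2, Saa3 and Lcn2 shared the largest of these deviations on full NTBC, and Orm1 and Orm2 those with no NTBC. Leaving out both first Fah-/- p53-/- arrays took the change for none against full NTBC from -5.46 to -4.44 for Saa1, from -8.47 to -6.99 for Saa2, from -2.91 to -1.78 for Saa3 and from 1.77 to 2.82 for Lcn2, all still called.

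**Figure D4:**
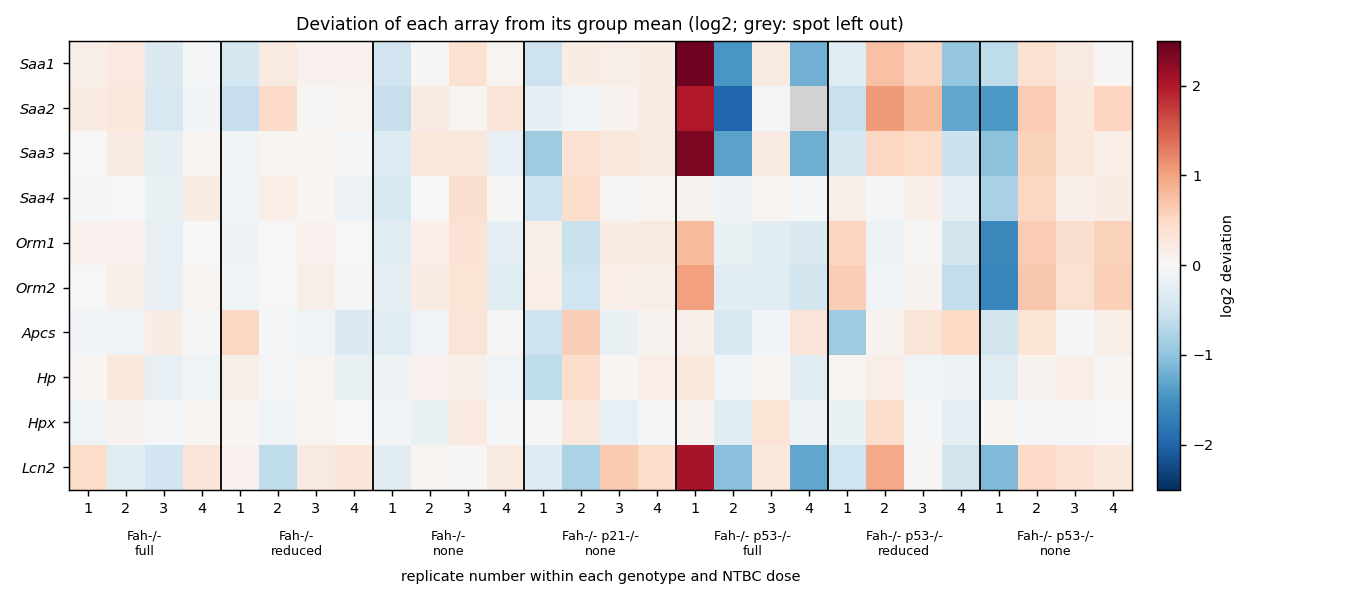
Deviation of each of 28 arrays from its group mean (colour, log2) for the 10 genes (rows), with arrays ordered by group and replicate number and the left-out Saa2 spot in grey. The first Fah-/- p53-/- array on full NTBC is red in all 10 rows (up to 2.44), and the first with no NTBC is blue in 9 of 10.

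Against full NTBC, Lcn2 was higher and Saa1 lower with no NTBC in both genotypes, while on reduced NTBC the changes of both genes were negative. Over the 28 arrays Pearson's r between them was -0.39 and Spearman's rho -0.57, and after group means were removed r was 0.83. Saa3 and Lcn2 gave -0.03 and 0.84. These are descriptions over arrays that share dose groups, scan years and scaling. Each of these genes spread most in Fah-/- p53-/- mice on full NTBC, so that group weighs most in the r within groups. There the 4 arrays deviated by 2.44, -1.46, 0.23 and -1.2 in Saa1 and by 2.06, -1.04, 0.26 and -1.29 in Lcn2. The Fah-/- arrays on reduced NTBC deviated by -0.43, 0.23, 0.11 and 0.1 in Saa1 and by 0.11, -0.63, 0.23 and 0.3 in Lcn2. Saa1 and Saa2 correlated at 0.98 over the 27 arrays with both values (0.93 within groups), Orm1 and Orm2 at 1 (0.99), and Hp and Hpx at 0.92 but 0.36 within groups. Apcs correlated with the other genes between -0.32 and 0.43.

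**Figure D5:**
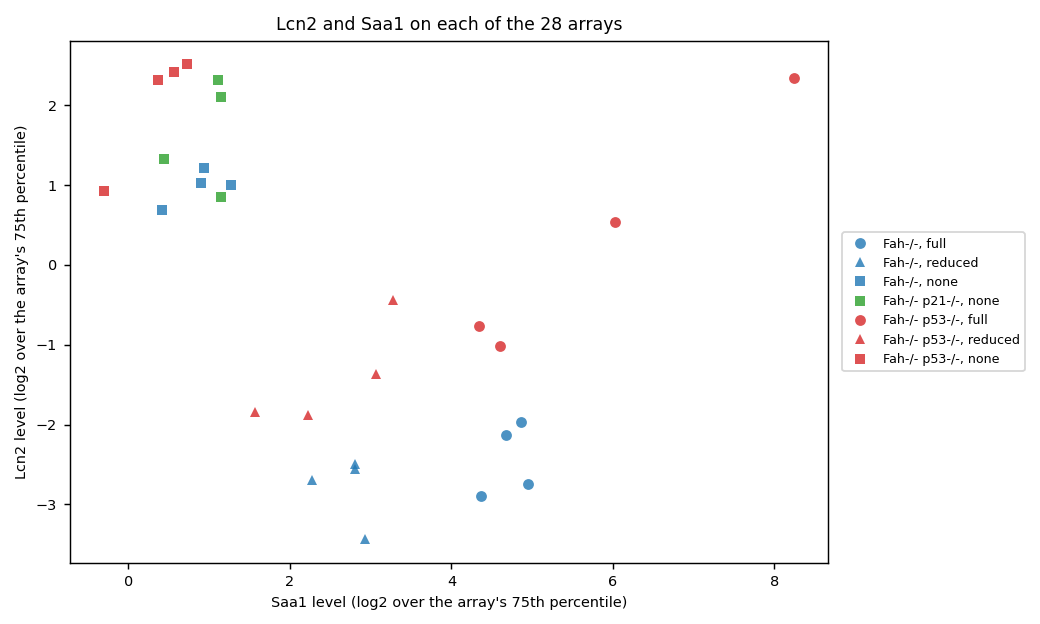
Lcn2 level against Saa1 level (log2 over the array's 75th percentile) on 28 arrays, with colour for genotype and shape for NTBC dose. Arrays with no NTBC sit at the upper left, Fah-/- arrays on full and reduced NTBC at the bottom, and the 4 Fah-/- p53-/- arrays on full NTBC rise together from Lcn2 -1.01 to 2.34.

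Beyond the 10 genes, the closest patterns over the 28 arrays were those of Il27 (r 0.97), Ly6g6c (0.96) and Hsp90b1 (0.95) for Saa1, and of Tgm2 (0.92), Chpf (0.91) and Adam15 (0.9) for Lcn2. For Saa4 they were Ces2a (0.95), Commd3 (0.94) and Smpd1 (0.94). For Hpx they were Lhx1 (0.98), Smim19 (0.96) and Ces1b (0.96), and for Apcs the second closest was the antigen-peptide transporter Tap1 (0.76). With group means removed, Saa1 and Saa3 were both closest to Derl3 (0.78 and 0.8), and Orm1 and Orm2 to Orm3 (0.9 and 0.88). These r values are over arrays of the same 7 groups and carry no test.

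In order of group means, Saa1 was highest in Fah-/- p53-/- mice on full NTBC (5.8 ± 1.79, SD, n = 4), then Fah-/- on full (4.71 ± 0.26), which overlapped it. Fah-/- and Fah-/- p53-/- on reduced NTBC followed (2.7 ± 0.29 and 2.53 ± 0.79) and overlapped each other, and the 3 groups with no NTBC came last (0.96 ± 0.35 without p21, 0.88 ± 0.35 in Fah-/- and 0.34 ± 0.45 without p53), each overlapping the next. The order for Lcn2 was headed by the groups with no NTBC, at 2.05 ± 0.75 without p53, 1.65 ± 0.68 without p21 and 0.98 ± 0.22 in Fah-/- mice, all of them overlapping. Fah-/- p53-/- mice on full (0.28 ± 1.53) and reduced NTBC (-1.38 ± 0.67) came between, the former overlapping Fah-/- mice with none, and Fah-/- mice on full (-2.43 ± 0.45) and reduced NTBC (-2.79 ± 0.43) were lowest and overlapped. Apcs means ran from 3.2 ± 0.25 in Fah-/- mice with no NTBC down to 1.43 ± 0.48 without p21 and 1.42 ± 0.34 without p53. Its neighbours in that order all overlapped.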

How the data were processed

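Liver total RNA of 28 mouse samples was amplified from 0.1 ug and labelled with Cy3, per the labels' protocols. Scans were quantified in Agilent Feature Extraction (the file headers give version 10.7.3.1, the submitters' processing notes 10.5). The deposited intensity of each spot (processed signal) is, per the file headers, background subtracted and detrended within the array, with no scaling between arrays. Values in the deposited table are log2, as their range shows, with array medians from 6.8905 to 6.9117, and no source used here names its software.

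From these files, 1639 control spots were set aside and 43379 other spots averaged to 41174 probes on the log2 scale. Spots that the scanner software marks as outliers were left out. Each array was scaled to its 75th percentile. A probe was kept (27509 were) where some group had it well above background on each of its 4 arrays. Symbols came from RefSeq (GRCm38.p6) by unversioned accession, for 28462 probes. The file headers name build mm9, so no probe coordinates are printed. The passing probe with the highest mean level stood for a gene. With limma 3.58.1 (R 4.3.3, with the package data.table, 1.17.8) a mean per group was fitted over 28 arrays (21 residual degrees of freedom) and 13 comparisons were made, with Benjamini-Hochberg adjustment over 20303 features. The procedure was tested on simulated data. Groups follow the genotype and dose labels. Figures were drawn with matplotlib 3.10.9.

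The members and gene lists were chosen with earlier results of these data known. All 10 members are named in every comparison, called or not, and from each further list up to 4 genes with the smallest adjusted p per comparison. The 3 most alike genes of a member are those with the highest Pearson r. Alternatives were normexp (offset 50, on median signals, since mean signals are not among the columns used here), quantile normalization, the value table, other filters and probes, other variance models, replicate number and slide as blocks, comparisons within slides, and each array left out. A term for sex, uneven spots kept and the first Fah-/- p53-/- arrays left out were also tried, the last 2 of these chosen after seeing the data.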

Additional observations from a re-analysis of the deposited data

Results flagged for a closer look

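Of 69 groups of 4 arrays (a gene in a group), 9 had 1 array far from the other 3 by Dixon's test at its 95% level, where chance flags about 1 in 20. In the first Fah-/- p53-/- array with no NTBC these were Orm1 (0.48, the others 2.52 to 2.75), Orm2 (1.08, the others 3.1 to 3.39) and Lcn2 (0.93, the others 2.32 to 2.51). In the first Fah-/- p21-/- array they were Saa1 (0.44, the others 1.11 to 1.15) and Saa3 (0.65, the others 1.76 to 1.91). In the Fah-/- p21-/- array of replicate 2 they were Orm1 (2.89, the others 3.6 to 3.68) and Orm2 (3.51, the others 4.15 to 4.17). Orm2 stood high in the first Fah-/- p53-/- array on full NTBC (7.02, the others 5.55 to 5.72), and Apcs in replicate 3 of Fah-/- mice on full NTBC (2.47, the others 2.2 to 2.23).

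The response to no NTBC differed between Fah-/- p53-/- and Fah-/- mice, by the interaction term of the limma fit, for Saa4 (-1.09), Apcs (-1.48) and Hpx (-0.88), each more negative without p53. None of these calls held with normexp, and those of Saa4 and Apcs were also lost with a term for sex. The Fah-/- p53-/- arrays with no NTBC were female and the others in this contrast male.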

How the results depend on the processing

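The changes of 10 genes in 13 comparisons were recomputed under the alternatives, which gave 3000 values: in 88 of these a call was lost, in 32 one was gained, and 10 had the opposite sign with a call before or after the change. These 10 all belong to Hp and Hpx under another scaling. Under quantile normalization and in the value table, Hp for none against full NTBC in Fah-/- mice was 0.34 and 0.51, Hp for none against reduced 0.09 and 0.26, Hpx for none against full 0.25 and 0.31, and Hpx for reduced against full 0.35 and 0.42. Hpx for reduced against full in Fah-/- p53-/- mice was 0.24 with normexp and 0.11 in the value table.

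The numbers of genes called moved as follows. Reduced against full in Fah-/- mice (5): 2 with normexp, 3 with quantile normalization (Saa1 and Saa2 lower and Hpx higher) and 3 with no filter. The same in Fah-/- p53-/- mice (9): 3 with normexp. None against reduced in Fah-/- p53-/- mice (8): 5 with a term for sex. Fah-/- p53-/- against Fah-/- on full NTBC (1): 2 with normexp and 2 with the groups compared alone, each time Lcn2 higher and Saa4 lower. Without both first arrays it was 3, where Saa4 (-0.58) and Orm1 (-0.62) were called lower. On reduced NTBC (1): 0 with normexp, 0 in the value table and 5 with the groups compared alone, of which Lcn2 (1.41) was called higher. Fah-/- p21-/- against Fah-/- (1): 3 with quantile normalization and 3 in the value table. Fah-/- p53-/- against Fah-/- p21-/- (4): 2 with normexp, 2 with the groups compared alone, 0 with slide as a fixed term, 1 within a slide, 2 with a term for sex and 2 in female arrays. The difference of the no-NTBC response (3): 0 with normexp and 1 with a term for sex. The cause was not tested.

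Leaving out 1 array at a time gave 3 to 4 calls for reduced against full, 9 to 10 for none against full and 8 to 9 for none against reduced in Fah-/- mice, and 8 to 9, 9 to 10 and 8 to 9 in Fah-/- p53-/- mice. Fah-/- p53-/- against Fah-/- gave 1 to 3 on full, 1 to 2 on reduced and 3 on no NTBC. Fah-/- p21-/- against Fah-/- gave 1 to 2, Fah-/- p53-/- against Fah-/- p21-/- 3 to 4, and the differences of response 0 to 1 (reduced) and 2 to 4 (none).

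Same-numbered arrays of different groups had a median correlation of 0.014 (-0.227 to 0.356 over 84 pairs). For other-numbered arrays it was -0.007 (-0.334 to 0.304 over 252 pairs). No pairing by replicate number was seen, but these correlations cannot exclude it for some arrays. With the replicate block, the fall of Saa3 on reduced NTBC in Fah-/- mice lost its call (-1.36, limma adjusted p 0.0537), which left 4 called, and no other call of the 10 genes changed. No spot was saturated, so leaving out saturated spots gave no values. The sex term rests on 4 Fah-/- p21-/- arrays. The dim end of the scale limits Lcn2, whose signal was 43.2 to 69 on full NTBC in Fah-/- mice. It also limits Saa2, whose signal was 63.6 to 250 on no NTBC in Fah-/- p53-/- mice.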

Other observations

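Genes that take up or break down what these proteins carry were called in both directions. In Fah-/- mice with no NTBC 5 of 13 rose and 4 fell, beside 29.3% higher and 41.6% lower over all features: the heme exporter Flvcr1 rose by 3.3, the heme-degrading enzyme Hmox1 by 3.42 and the scavenger receptor Cd36 by 1.91, while the hemopexin receptor Lrp1 fell by 1.71. In Fah-/- p53-/- mice 7 of 13 rose and 3 fell (all features 29.6% and 40.1%), with Flvcr1 at 2.64, Hmox1 at 2.59, Lrp1 at -1.34 and the lipocalin 2 receptor Slc22a17 at -1.67.

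Glucocorticoids act with interleukin-6 on acute phase genes. Of 10 of their liver targets 4 rose and 4 fell in Fah-/- mice with no NTBC (near the 29.3% and 41.6% of all features), where the metallothionein Mt2 rose by 3.88 and the tyrosine-degrading enzyme Tat fell by 2.92. On full NTBC Mt2 was 4.97 (limma adjusted p 2.93e-11) and Mt1 4.34 (1.97e-09) higher in Fah-/- p53-/- than in Fah-/- mice. Genotype and slide cannot be told apart in that comparison.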
